A study of Mus musculus with 12 samples.

Results

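Krüppel-like factors (KLFs) were followed in BMMCs, mast cells differentiated in culture from the bone marrow of mice. The 8 genes described here, Klf2, Klf3, Klf4, Klf6, Klf7, Klf9, Klf10 and Klf13, were chosen by symbol from the 16234 genes of the deposited count table, and all 8 were present. RNA was sequenced in 12 libraries, which formed 6 groups of 2 replicates. Cells came from C57BL/6N mice of both sexes, aged 6 to 12 weeks, that were Elk4 wild type (WT, littermates), heterozygous (HZ) or homozygous knockout (KO) for a conventional Elk4 deletion. The deletion was therefore present in every cell of the animal and not in mast cells alone. All cultures had grown for 4 to 8 weeks with IL-3 and SCF, and over 80% of the cells were positive for both CD117 and FcϵRI. In each genotype, 1 group was untreated (unstimulated) and 1 was stimulated with IgE-DNP/HSA. For RT-qPCR, the study used 0.5 µg/ml anti-DNP-IgE overnight and then 100 ng/ml DNP-HSA for 1 h. Its RNA-seq methods state no dose or time. Whether unstimulated cells had also received IgE is not stated, and neither is whether the replicates came from separate animals or cultures, so that p-values measure only the spread between these libraries, which may be technical. Genotype and culture cannot be told apart in this design.

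KLFs are transcription factors with zinc fingers at the C-terminal end that bind CACC and GC boxes in promoters and enhancers. The family is commonly split by what the N-terminal part recruits. KLF2, KLF4, KLF6 and KLF7 belong to the branch that mostly activates transcription with acetyltransferases, KLF3 to the branch that represses through CtBP, and KLF9, KLF10 and KLF13 to the branch that binds SIN3A. Several of the genes are immediate-early genes in other cells, and KLF2 and KLF4 are known for keeping lymphocytes and endothelium quiescent.

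Total counts per library ranged from 29697958 to 35531667. Without stimulation, the count of Elk4 itself was 2426 and 2740 in the WT libraries, 3238 and 2837 in HZ libraries and 2613 and 2253 in KO libraries. The count over the whole gene was therefore not lost in the libraries labelled KO (log2 fold change of unstimulated KO against WT -0.19, edgeR quasi-likelihood test with Benjamini-Hochberg adjusted p = 0.00872), and it does not check the labels. All 13 mast cell markers in the table, of 14 listed, reached 1 CPM, a count scaled to library size, in every group, and their summed level was 51093 to 62685 CPM. Among single markers, unstimulated group means in WT, HZ and KO were 126, 109 and 17.0 CPM for Hdc. In the same order they were 18.7, 52.6 and 27.5 CPM for Mcpt4 and 4952, 4912 and 4743 CPM for Kit. Neutrophil and lymphocyte markers summed to at most 0.269 and 0.537 CPM. The 10 macrophage or monocyte markers summed to 164 to 165 CPM in unstimulated WT libraries, 91.0 to 92.6 CPM in HZ and 96.6 to 98.4 CPM in KO, and to 93.7 to 137 CPM in stimulated libraries. Most of the macrophage sum was Cx3cr1 and Cd68, while Csf1r was at most 0.471 CPM and Mrc1 at most 0.0152 CPM as group means. The erythroid or megakaryocyte sum, nearly all Itga2b, was 2419 to 2427 CPM in unstimulated HZ and 1512 to 1768 CPM in the other groups, with group means of Hbb-bs and Pf4 at most 0.0893 CPM. The basophil sum, mostly Cd200r3, was 674 to 675 CPM in unstimulated HZ and 465 to 601 CPM elsewhere, with group means of Prss34 at most 1.32 CPM. The endothelial or stromal sum, nearly all Pecam1, was 438 to 537 CPM. In bulk RNA, fewer cells of a type and less RNA per cell cannot be told apart, and the part of these lists in the differences below was not tested.

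Of the 8 KLF genes, 7 were well expressed and Klf4 was at the edge of detection. Levels of different genes were compared as FPKM, which the authors scaled by gene length and library total. In unstimulated WT cells, Klf6 was the highest with 209.4 ± 5.14 FPKM (SD, n = 2, as for all values given with ±). It was followed by Klf2 with 55.2 ± 0.988 FPKM, Klf9 with 30.2 ± 0.0846 FPKM and Klf13 with 25.5 ± 1.17 FPKM. Klf7, Klf3 and Klf10 lay close together at 10.7 ± 0.341, 10.3 ± 0.114 and 9.95 ± 0.505 FPKM, and the libraries of Klf3 and Klf10 overlapped. Klf4 was at 0.0155 ± 0.0159 FPKM. Klf6 stood above 98.5% of all genes of the table in this group.

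The order changed with stimulation. In stimulated WT cells Klf6 remained the highest at 256.8 ± 0.968 FPKM, but Klf9 was second at 125.8 ± 0.0294 FPKM, ahead of Klf2 at 35.7 ± 0.924 and Klf13 at 32.3 ± 0.900 FPKM. Klf9 was also second in stimulated HZ cells, at 127.7 ± 0.222 FPKM, and in stimulated KO cells, at 138.2 ± 2.19 FPKM. Unstimulated HZ cells had another order, in which Klf2, at 19.5 ± 0.789 FPKM, came behind Klf6, Klf13, Klf3 and Klf9, and the libraries of Klf13 and Klf3 overlapped. In unstimulated KO cells Klf10, at 30.3 ± 0.486 FPKM, stood just behind Klf9. Of the 42 pairs of neighbours in the 6 orders, 2 overlapped between libraries, the pairs named here.

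**Figure D1:**
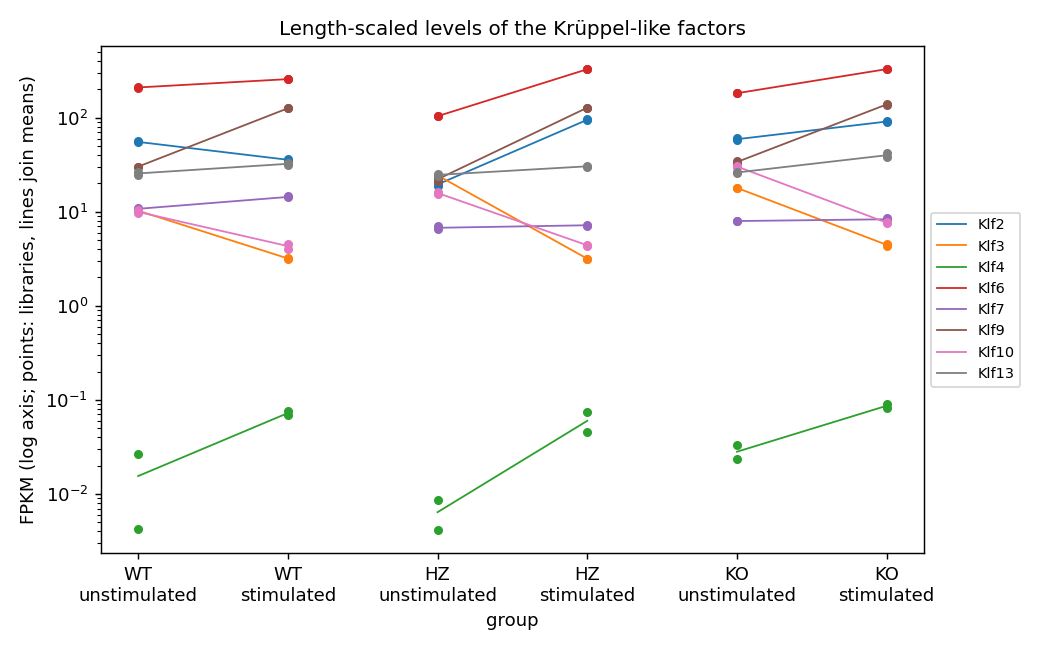
FPKM (log axis) of the 8 KLF genes in each of the 12 libraries, by group, with lines joining the unstimulated and stimulated means of a genotype. Klf6 lies on top in every group, Klf9 climbs to second place in stimulated cells, and Klf4 stays under 0.1 FPKM throughout.

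The stretches of DNA before the start sites are shown for Klf2, Klf3, Klf6 and Klf9, the genes whose levels moved most among the well-expressed members that had a promoter entry. They are the 250 bases before the RefSeq start site in the reference GRCm38.p6, which is not the build of the authors' alignment, read 5′ to 3′ on the strand of the gene. Klf2 lies at chr8:72318812-72319061 (+ strand), Klf3 at chr5:64803271-64803520 (+ strand), Klf6 at chr13:5861239-5861488 (+ strand) and Klf9 at chr19:23140976-23141225 (+ strand). Capitals mark every match, on either strand, to the motifs searched: the CACC box CACCC that KLF and SP proteins bind, the GC box GGGCGG, the ETS core CCGGAA, AP-1 as TGANTCA, CRE as TGACGTCA and its shorter form TGACGT, the glucocorticoid receptor motif AGAACA, EGR as GCGTGGGCG, the E-box CACGTG that MITF and others bind, the SRF CArG box and the MEF2 site.
Klf2: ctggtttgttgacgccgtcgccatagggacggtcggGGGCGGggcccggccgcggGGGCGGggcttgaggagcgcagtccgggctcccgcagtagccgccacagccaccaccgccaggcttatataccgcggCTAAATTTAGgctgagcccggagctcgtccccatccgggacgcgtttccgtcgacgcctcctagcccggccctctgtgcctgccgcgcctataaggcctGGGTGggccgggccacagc
Klf3: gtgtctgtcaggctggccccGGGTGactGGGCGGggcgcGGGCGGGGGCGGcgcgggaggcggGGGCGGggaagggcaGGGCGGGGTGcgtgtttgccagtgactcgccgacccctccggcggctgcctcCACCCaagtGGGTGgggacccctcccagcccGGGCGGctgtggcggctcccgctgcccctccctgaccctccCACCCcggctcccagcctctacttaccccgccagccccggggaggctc
Klf6: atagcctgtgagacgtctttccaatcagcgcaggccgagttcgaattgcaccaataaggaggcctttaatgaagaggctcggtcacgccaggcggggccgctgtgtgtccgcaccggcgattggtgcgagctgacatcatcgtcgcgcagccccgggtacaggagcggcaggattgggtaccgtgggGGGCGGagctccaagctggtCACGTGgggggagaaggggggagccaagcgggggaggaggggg
Klf9: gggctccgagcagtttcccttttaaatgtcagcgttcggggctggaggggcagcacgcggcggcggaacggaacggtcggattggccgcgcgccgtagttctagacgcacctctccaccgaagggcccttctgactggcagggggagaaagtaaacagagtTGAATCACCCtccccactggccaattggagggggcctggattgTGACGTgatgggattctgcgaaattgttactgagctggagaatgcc

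Promoter entries matched 7 of the 8 genes, all but Klf10, and motifs were counted over 300 bases, from 250 before to 50 after the start. The Klf3 window held the most family letters, 6 GC boxes and 5 CACC boxes, of which 1 pair shared a base. The Klf2 window held a match to the MEF2 site from 118 to 109 bases before the start, a motif that 0.557% of 32851 promoter windows held. The Klf9 window held an AP-1 match from 89 to 83 bases before the start, which shared 2 bases with a CACC box, and a short CRE from 46 to 41 bases before it. AP-1 letters stood in 7.81% and the short CRE in 7.51% of all windows, and the short CRE was also found in the Klf13 window. An E-box stood in the Klf4 and Klf6 windows and in 7.15% of all windows. The GC box was found in 6 of the 7 windows (all but Klf9) and in 35.7% of all windows, and the CACC box in 5 of 7 and in 57.5% of all. None of the 7 windows held the ETS core (14.9% of all windows), the SRF CArG box (1.63%), CRE (1.79%), EGR (0.612%) or the glucocorticoid receptor motif (19% of all). The 250 bases before the start were 59.2% to 78.4% G or C in the 7 genes, against a median of 52.4% over all windows. These matches are letters in a window and say nothing about binding.

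**Figure D2:**
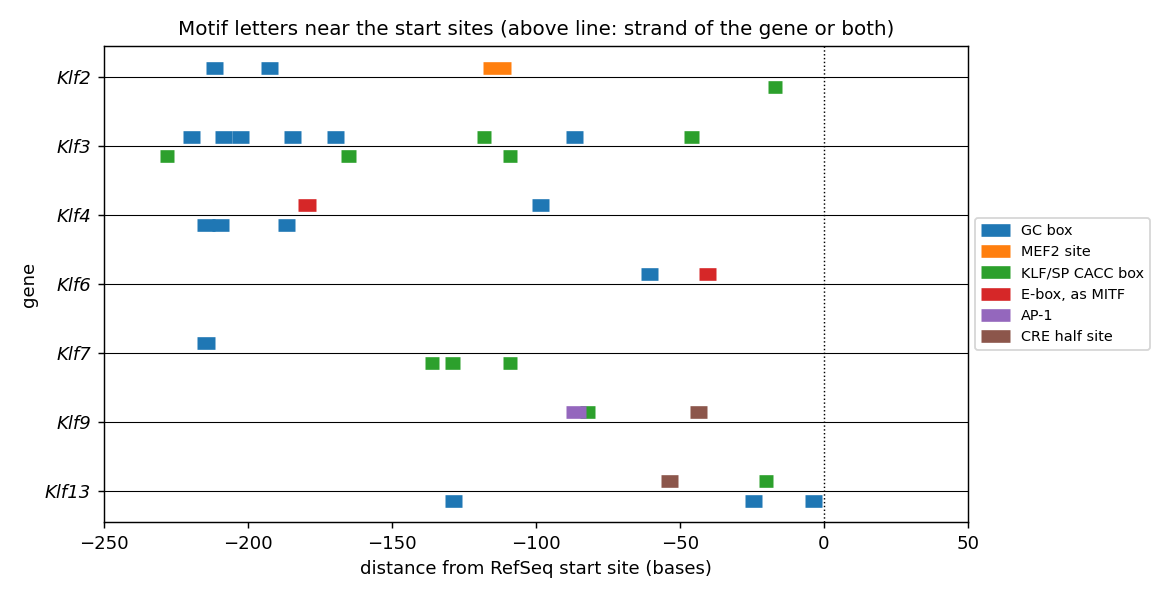
Position of motif letters in the promoter windows of 7 KLF genes, in bases from the RefSeq start site (dotted line). Bars above a gene's line are on its own strand or read the same on both strands, and bars below it are on the opposite strand. Klf3 carries the longest row of GC and CACC boxes, and AP-1 letters appear only in the Klf9 window.

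The first comparison asked how each KLF mRNA moved with IgE-DNP/HSA stimulation. In WT cells Klf9 rose 5.16-fold and Klf3 fell to 0.385 of its level. Klf6, Klf7 and Klf13 rose by less than 2-fold, Klf10 and Klf2 fell by less than 2-fold, and Klf4 rose from a trace. All 8 genes had an adjusted p below 0.05 (edgeR quasi-likelihood test, Benjamini-Hochberg adjustment over 12208 genes), as did 45.3% of all genes tested, and 3 of the 8 also changed at least 2-fold: Klf9 and Klf4 were higher and Klf3 was lower. By the 2-fold rule, 3.71% of all genes tested were called higher and 3.06% lower. The median log2 fold change was 0.63 over the 8 KLF genes and -0.01 over all genes tested. Klf4 passed the filter on low counts only through its stimulated libraries, so a count over the 8 genes does not stand as support.

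In HZ cells 6 of the 8 genes passed the same rule, with Klf2, Klf4, Klf6 and Klf9 higher and Klf3 and Klf10 lower, where 7.02% of all genes were called higher and 7.28% lower. In KO cells 5 passed, with Klf4, Klf6 and Klf9 higher and Klf3 and Klf10 lower, where 3.73% of all genes were called higher and 2.88% lower. At an adjusted p below 0.05 alone, all 8 passed in HZ and in KO cells, as did 64.4% and 40.8% of all genes. The median log2 fold change of the 8 genes was 1.21 in HZ and 0.91 in KO cells, against -0.00 and -0.01 over all genes. Scaling by library totals alone, in place of TMM, moved the median of all genes by -0.31 in the WT response, -0.23 in HZ and -0.29 in KO on the log2 scale. Under that scaling no KLF gene changed the direction of its response, but Klf6 in KO cells no longer reached 2-fold (log2 fold change 0.85), Klf4 in KO cells no longer passed (1.61, edgeR adjusted p = 0.0512) and Klf10 in WT cells did (-1.21).

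**Figure D3:**
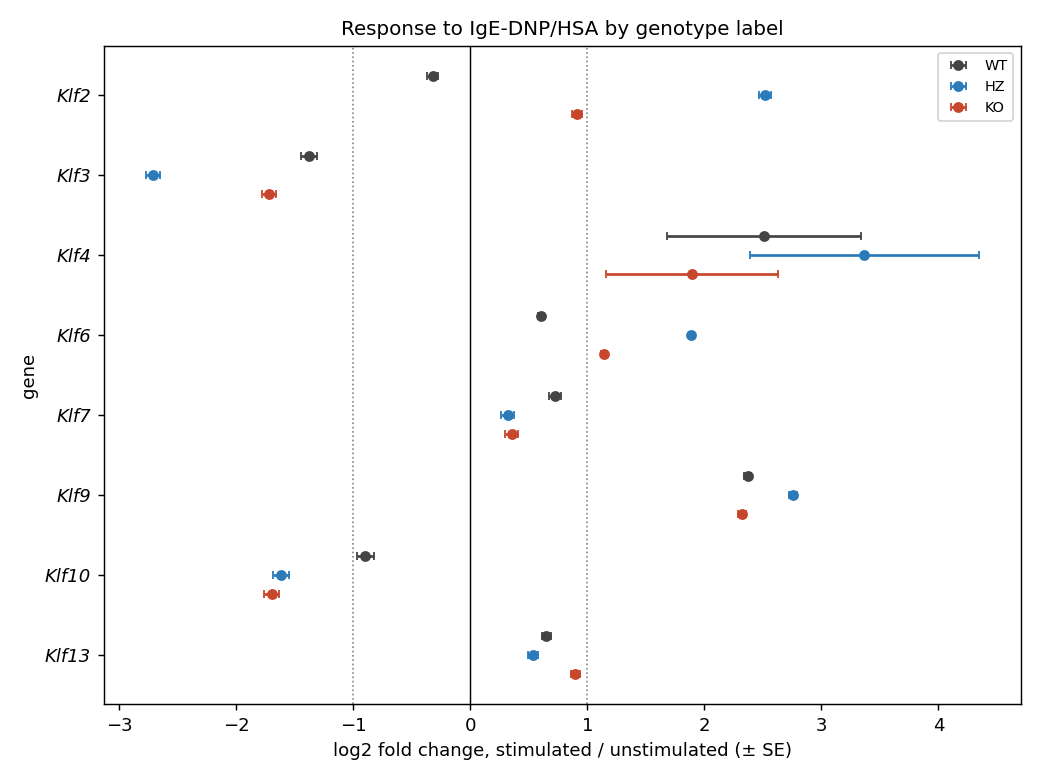
Log2 fold change of stimulated over unstimulated cells for each KLF gene, by genotype label, with the standard error of the edgeR fit (x axis) and dotted lines at a 2-fold change. Klf9 lies between 2.32 and 2.76 in all 3 genotypes, whereas Klf2 spans -0.32 in WT to 2.52 in HZ cells.

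Klf9 encodes a SIN3A-binding repressor that is known as a target of glucocorticoid and thyroid hormone receptors. Its unstimulated libraries had 121 and 120 CPM in WT, 94.6 and 88.8 CPM in HZ and 141 and 134 CPM in KO cells. Its stimulated libraries had 623 and 624 CPM in WT, 619 and 625 CPM in HZ and 679 and 695 CPM in KO cells. Every stimulated library was thus above every unstimulated one, in each genotype. The log2 fold change was 2.37 ± 0.03 (SE) in WT, 2.76 ± 0.03 in HZ and 2.32 ± 0.03 in KO cells, with edgeR adjusted p of 2.05e-45, 7.27e-48 and 2.43e-45. The HZ response was larger than that of WT by 0.39 ± 0.05 on the log2 scale (edgeR adjusted p = 1.56e-09). The difference between the KO and WT responses was -0.05 ± 0.05 and did not pass (edgeR adjusted p = 0.624). The larger HZ response went with a lower start, since unstimulated HZ was below WT by a log2 difference of -0.40 while stimulated HZ and WT libraries overlapped.

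Klf6 encodes an activator known as a tumour suppressor and injury-response gene. It had the highest level of the 8 genes in every group. Its unstimulated libraries held 778 and 801 CPM in WT, 404 and 405 CPM in HZ and 696 CPM in both KO libraries. The stimulated libraries were at 1195 and 1202 CPM in WT, 1495 and 1504 CPM in HZ and 1539 and 1529 CPM in KO cells. Unstimulated HZ cells were therefore the lowest and stimulated HZ and KO cells the highest, with stimulated WT cells between them. The rise was 1.52-fold in WT, 3.71-fold in HZ and 2.20-fold in KO cells (log2 fold changes 0.60 ± 0.02, 1.89 ± 0.03 and 1.14 ± 0.02). It was larger than in WT by 1.29 ± 0.03 on the log2 scale in HZ (edgeR adjusted p = 1.63e-32) and by 0.54 ± 0.03 in KO cells (edgeR adjusted p = 3.12e-17).

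Klf2, which encodes the quiescence factor of lymphocytes and endothelium, was the only one of the 8 genes whose response differed in direction between genotypes. The WT libraries held 88.8 and 90.6 CPM unstimulated and 70.4 and 73.0 CPM stimulated. The HZ libraries held 31.8 and 33.7 CPM unstimulated and 185 and 190 CPM stimulated, and the KO libraries 99.6 and 94.9 CPM unstimulated and 180 and 186 CPM stimulated. WT cells therefore fell slightly, KO cells rose 1.88-fold and HZ cells moved from the lowest to the highest group, where the stimulated HZ and KO libraries overlapped. The log2 fold change was -0.32 ± 0.05 in WT, 2.52 ± 0.05 in HZ and 0.91 ± 0.04 in KO cells, with edgeR adjusted p of 1.40e-07, 2.31e-39 and 5.80e-23. Tested as a difference of responses, KO exceeded WT by 1.23 ± 0.06 on the log2 scale (edgeR adjusted p = 1.82e-20) and HZ exceeded WT by 2.84 ± 0.07 (edgeR adjusted p = 1.70e-34). Across the 11 alternatives that kept all libraries, the WT response stayed between -0.63 and -0.31 and the KO response between 0.61 and 0.93.

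Klf7, an activator best known from neurons and adipose tissue, rose most in WT cells and stayed lower in the other genotypes. It had 75.4 and 78.4 CPM in unstimulated WT, 51.8 and 48.3 CPM in HZ and 57.7 and 58.1 CPM in KO libraries. After stimulation it had 126 and 129 CPM in WT, 63.1 and 61.9 CPM in HZ and 70.9 and 76.9 CPM in KO libraries. No HZ or KO library reached the level of a stimulated WT library, and the 4 unstimulated HZ and KO libraries were below the 2 unstimulated WT libraries. The log2 fold change was 0.73 ± 0.05 in WT, 0.32 ± 0.06 in HZ and 0.35 ± 0.05 in KO cells. The response was smaller than in WT by -0.41 ± 0.08 in HZ (edgeR adjusted p = 1.79e-05) and by -0.37 ± 0.07 in KO cells (edgeR adjusted p = 0.000353), as differences on the log2 scale. Scaled by library totals, the HZ and KO responses were 0.09 and 0.06 with edgeR adjusted p of 0.155 and 0.303. They did not pass in the limma fits on FPKM either, while DESeq2 and its size factors in edgeR kept both under 0.05. These rises thus depend on whether libraries are scaled beyond their totals.

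Klf4, the pluripotency and epithelial barrier factor, was barely detected. It had 6 and 1 counts in unstimulated WT, 1 and 2 counts in HZ and 6 and 8 counts in KO libraries. Stimulated libraries had 17 and 19 counts in WT, 20 and 11 counts in HZ and 21 and 20 counts in KO cells. Each stimulated library was above each unstimulated library, but none reached 1 CPM. The ratio of summed counts per scaled library size was 5.89 in WT (95% exact interval 2.58 to 15.7), 11.2 in HZ (3.50 to 57.3) and 3.78 in KO cells (2.02 to 7.50), intervals that cover counting error only. The fitted log2 fold change in WT, 2.51, moved to 4.23 without unstimulated replicate 1 and to 1.73 without unstimulated replicate 2. The fitted edgeR adjusted p was 0.0116, 0.00253 and 0.0351. In WT cells it rose to 0.0599 without stimulated replicate 2 and to 0.185 without unstimulated replicate 2, and in KO cells it was 0.108 to 0.215 without any 1 of the 4 libraries and 0.0954 with no filter on low counts. Differences between genotypes in the Klf4 response did not pass (edgeR adjusted p = 0.824 for KO and 0.672 for HZ).

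Klf3, which encodes the CtBP-recruiting repressor, fell in all 3 genotypes. It had 48.1 and 48.5 CPM in unstimulated WT, 121 and 116 CPM in HZ and 85.7 and 85.7 CPM in KO libraries. Stimulated libraries had 18.1 and 19.0 CPM in WT, 18.0 and 18.2 CPM in HZ and 25.3 and 26.7 CPM in KO cells. The groups were thus far apart before stimulation, whereas stimulated WT and HZ libraries overlapped and stimulated KO libraries lay above both. The log2 fold change of Klf3 was -1.38 ± 0.07 in WT, -2.71 ± 0.06 in HZ and -1.72 ± 0.06 in KO cells (edgeR adjusted p = 6.21e-23, 5.79e-36 and 3.68e-28). The fall in HZ exceeded that in WT, with a difference of -1.33 ± 0.09 (edgeR adjusted p = 2.22e-16). For KO the difference was -0.34 ± 0.09 (edgeR adjusted p = 0.0108), and it no longer passed without stimulated KO replicate 1 (0.0702) or without stimulated WT replicate 2 (0.0757).

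Klf10, the TGF-beta-inducible early gene, also fell in all 3 genotypes. It was at 37.2 and 34.4 CPM in unstimulated WT, 59.6 and 58.1 CPM in HZ and 109 and 112 CPM in KO libraries. Stimulated libraries had 18.0 and 20.3 CPM in WT, 18.9 and 19.6 CPM in HZ and 33.4 and 34.8 CPM in KO cells. Unstimulated levels therefore ran from WT over HZ to KO without overlap, and the stimulated KO libraries reached about the level of unstimulated WT. The log2 fold change of Klf10 was -0.90 ± 0.07 in WT, -1.61 ± 0.07 in HZ and -1.70 ± 0.06 in KO cells (edgeR adjusted p = 1.18e-14, 4.92e-25 and 2.83e-27). The falls in HZ and KO exceeded that in WT, with differences of -0.72 ± 0.10 (edgeR adjusted p = 1.01e-07) and -0.80 ± 0.10 (edgeR adjusted p = 2.55e-08).

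Klf13, which encodes a factor known for binding the Ccl5 promoter in T cells, did not pass between any 2 genotypes without stimulation. Unstimulated libraries had 151 and 141 CPM in WT, 148 and 144 CPM in HZ and 150 and 153 CPM in KO cells. Stimulated libraries had 224 and 233 CPM in WT, 208 and 214 CPM in HZ and 295 and 271 CPM in KO cells. All stimulated libraries were above all unstimulated ones, and among the latter the genotypes WT and KO, as well as WT and HZ, overlapped. The log2 fold change was 0.65 ± 0.04 in WT, 0.53 ± 0.04 in HZ and 0.90 ± 0.04 in KO cells. The KO response exceeded that of WT by 0.25 ± 0.06 (edgeR adjusted p = 0.00183), which did not pass without stimulated KO replicate 1 (0.0608) or with limma on log2(FPKM + 1) (0.0838). The HZ response did not pass as different from WT (-0.11 ± 0.06, edgeR adjusted p = 0.111), although it did without unstimulated WT replicate 1 (-0.16, 0.0347).

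**Figure D4:**
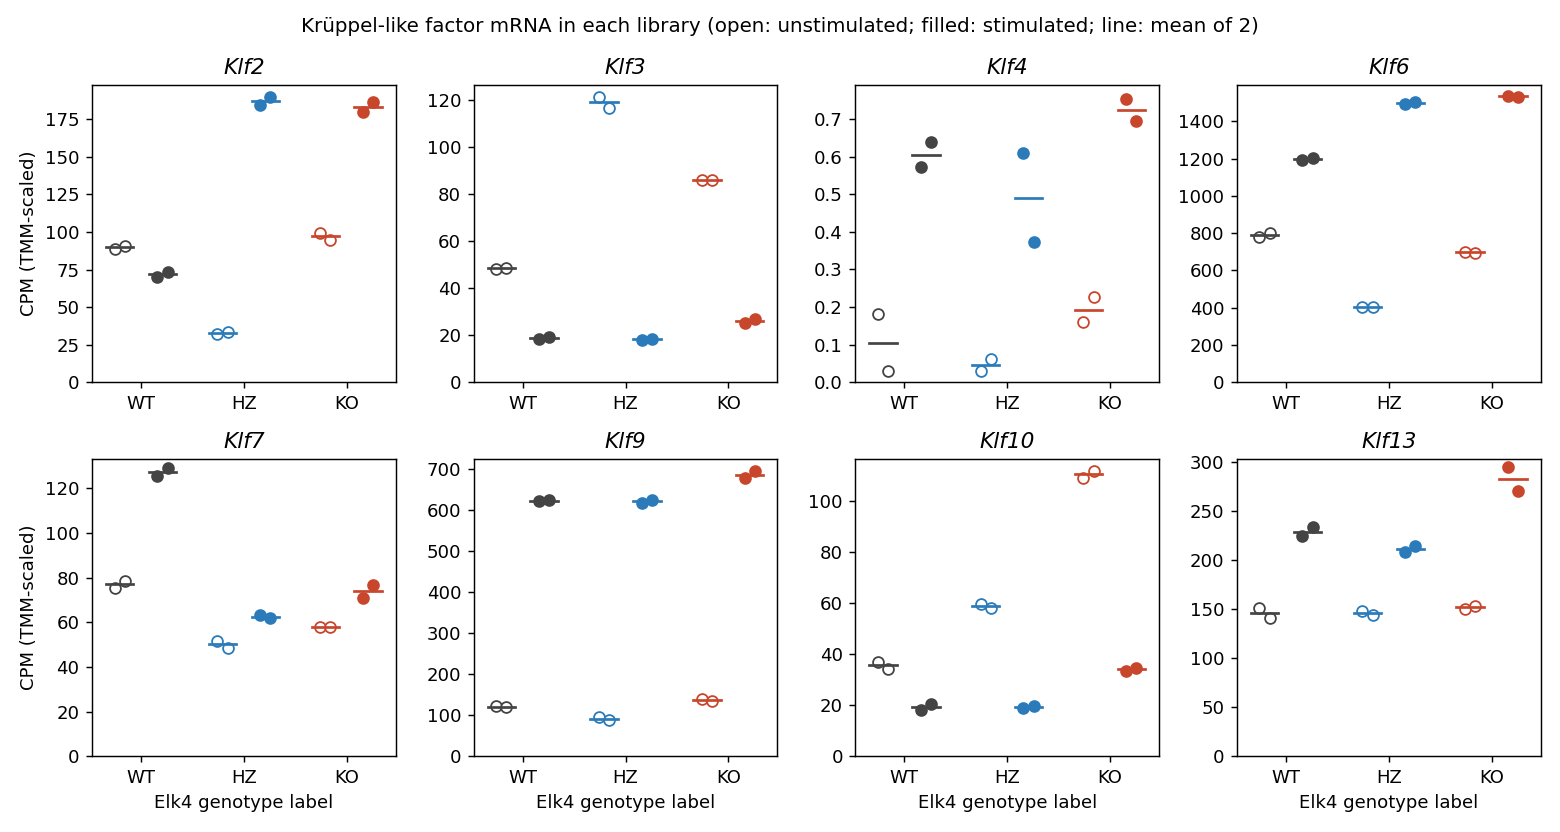
CPM (TMM-scaled, linear axes from 0) of each KLF gene in each library, by Elk4 genotype label, with open points for unstimulated and filled points for stimulated cells and a line at the mean of 2 libraries. Klf2 goes down in WT and up in HZ and KO cells, Klf3 and Klf10 start from different levels and fall in all 3 genotypes, and Klf4 stays below 1 CPM.

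The second comparison asked how the genotypes differed without stimulation. In KO against WT, Klf10 was the KLF gene that passed the 2-fold rule, at 3.09-fold higher (log2 fold change 1.63 ± 0.06, edgeR adjusted p = 2.02e-26), and 7.51% of all genes passed it in either direction. Klf3 was higher by 0.83 ± 0.06 on the log2 scale (edgeR adjusted p = 4.70e-17) and Klf7 lower, at -0.41 ± 0.05 (edgeR adjusted p = 9.49e-09), both under 2-fold. Klf9 and Klf6 differed by 0.19 and -0.18 with an adjusted p below 0.05, as did Klf2 by 0.12, whose edgeR adjusted p of 0.0310 was 0.0881 with DESeq2. Klf4 and Klf13 did not pass.

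In unstimulated HZ against WT, 2 KLF genes passed the 2-fold rule, as did 9.15% of all genes. Klf2 was 2.74-fold lower (log2 fold change -1.45 ± 0.05, edgeR adjusted p = 2.24e-28) and Klf3 was 2.46-fold higher (1.30 ± 0.06, edgeR adjusted p = 1.34e-24). Klf6 was just inside 2-fold, at 1.95-fold lower (-0.96 ± 0.02), and its log2 fold change was -1.01 when scaled by library totals. Klf10 was higher by 0.72, Klf7 lower at -0.62 and Klf9 lower at -0.40, each with an adjusted p below 0.05. Between KO and HZ, Klf2 passed, 2.97-fold higher in KO (edgeR adjusted p = 2.10e-29), and 3.36% of all genes passed. In that comparison Klf10, Klf6 and Klf9 were higher in KO by 0.91, 0.78 and 0.58 on the log2 scale. Without stimulation, the HZ libraries thus held the lowest levels of Klf2, Klf6, Klf7 and Klf9 and the highest of Klf3. For Klf10 they lay between WT and KO. At an adjusted p below 0.05 alone, 6 of the 8 genes passed in each of the 3 unstimulated comparisons, as did 44.6% of all genes in KO against WT, 51.4% in HZ against WT and 45.2% in KO against HZ.

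The third comparison took the genotypes after stimulation, where a gene passed at 1.5-fold or more, or at 0.66 of WT or less, together with an adjusted p under 0.05. In KO against WT, 3 KLF genes passed, as did 12.7% of all genes. Klf2 was 2.55-fold higher (log2 fold change 1.35 ± 0.05, edgeR adjusted p = 1.25e-28), Klf10 1.78-fold higher (0.83 ± 0.07, edgeR adjusted p = 3.79e-13) and Klf7 at 0.581 of WT (-0.78 ± 0.05, edgeR adjusted p = 1.72e-17). In HZ against WT, 2 passed, as did 7.89% of all genes: Klf2 was 2.61-fold higher (1.39 ± 0.05, edgeR adjusted p = 8.42e-29) and Klf7 at 0.491 of WT (-1.03 ± 0.05, edgeR adjusted p = 2.24e-21). Between KO and HZ, Klf10 alone passed, 1.78-fold higher in KO (edgeR adjusted p = 1.17e-12), where 5.32% of all genes passed. Klf2 in these stimulated cells differed between KO and HZ by -0.03 ± 0.04 (edgeR adjusted p = 0.639). At an adjusted p below 0.05 alone, 7, 4 and 5 of the 8 genes passed in KO against WT, HZ against WT and KO against HZ, as did 40.4%, 34.9% and 24.9% of all genes. These comparisons share the WT, HZ or KO libraries and are not independent of each other.

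**Figure D5:**
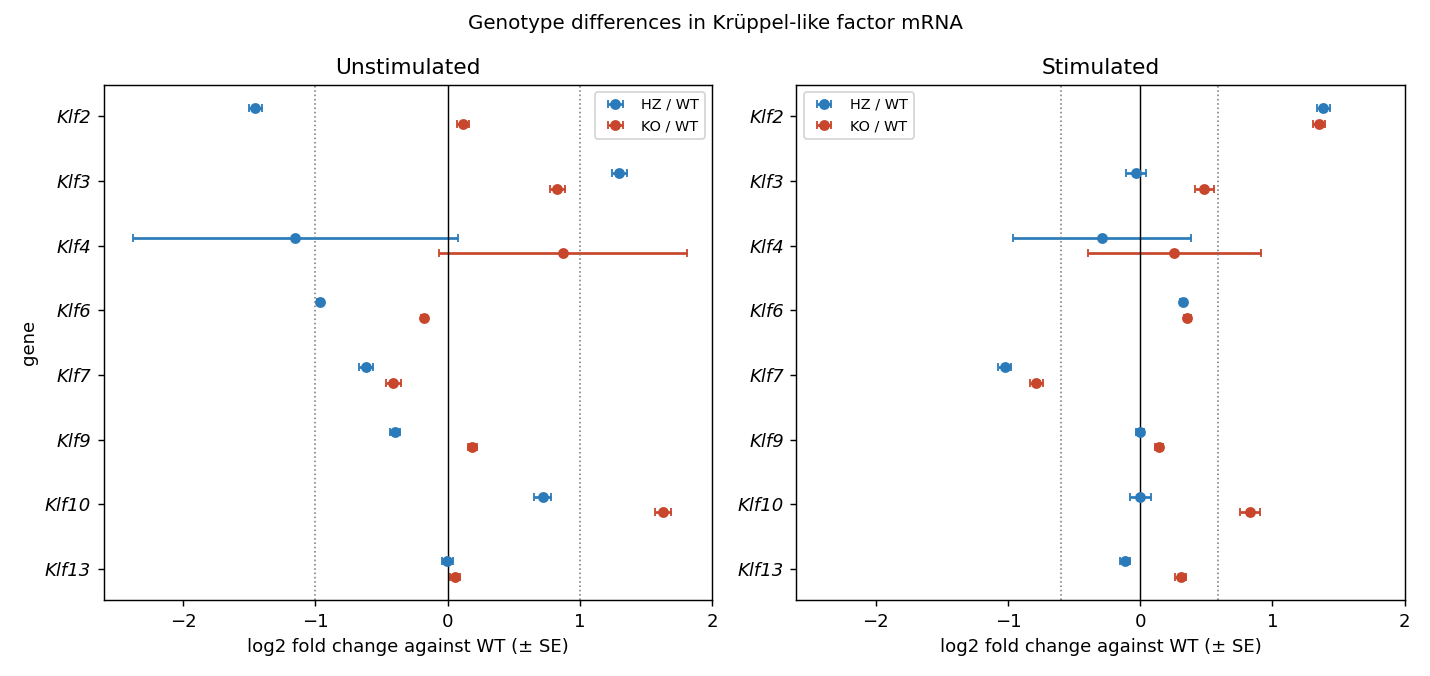
Log2 fold change of HZ and KO against WT for each KLF gene, with the standard error of the edgeR fit, in unstimulated (left) and stimulated (right) cells. Dotted lines mark the fold thresholds, 2-fold on the left and 0.66 and 1.5 on the right. Klf2 lies far below 0 in unstimulated HZ cells and above 1 in both genotypes after stimulation, and Klf7 lies below 0 in all 4 comparisons.

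As a difference of responses, 6 of the 8 genes differed between KO and WT at an adjusted p below 0.05, where 9.27% of all genes did, and 6 differed between HZ and WT, where 38.5% of all genes did. In KO the log2 fold change was above that of WT for Klf2, Klf6 and Klf13 and below it for Klf3, Klf7 and Klf10. In HZ it was above that of WT for Klf2, Klf6 and Klf9 and below it for Klf3, Klf7 and Klf10. For Klf3 and Klf10 this was a larger fall than in WT, and for Klf7 a smaller rise. Both sets of differences use the same WT libraries.

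Over the 12 libraries, the levels of the 8 genes were compared by Pearson's r of log2 CPM. The points share the stimulation states and the scaling, so that r describes the libraries and carries no test. Klf9 ran with Klf13 (r = 0.94), Klf6 (0.93) and Klf4 (0.93), Klf3 with Klf10 (0.88), and Klf2 with Klf6 (0.87). Klf3 ran against Klf6 (r = -0.94) and Klf9 (-0.93), while Klf7 and Klf2 had an r of 0.13. Among 8382 other genes with a mean of at least 10 CPM, those most alike to Klf3 were Cdk9 and Dpf2 (r = 0.99 each) and to Klf4 Arf4 and Coq10b (r = 0.96 each), and M6pr was among those most alike to Klf9 (r = 0.998). Klf4 had 1 to 21 counts per library and passed the filter on low counts only through its stimulated libraries. Every r of Klf4, with Klf9 as with Arf4 and Coq10b, follows largely from that selection and is no support.

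Genes around the KLFs were read from lists. Of the 18 other KLF and SP family genes, 16 were in the table and 9 were tested, and none passed the 2-fold rule in any genotype by edgeR or DESeq2. At an unadjusted edgeR p below 0.05 there were 1, 4 and 5 of them in the WT, HZ and KO responses, where 51%, 66.8% and 47% of all genes tested had such a p. The one in WT was Sp3, a GC box-binding family member named after its values were seen, which had a log2 fold change of -0.37 in WT, -0.44 in HZ and -0.44 in KO cells (edgeR adjusted p = 4.54e-07, 5.12e-09 and 1.39e-08). Klf11, the closest relative of Klf10 and likewise named after its values were seen, was at a mean of 7.82 CPM in unstimulated WT and 14.5 CPM in unstimulated KO cells (log2 fold change 0.89 ± 0.14, edgeR adjusted p = 3.67e-07), and only its KO response passed an adjusted p of 0.05 (-0.76 ± 0.14, edgeR adjusted p = 1.07e-05).

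None of 6 tested genes of the ERK5 and MEF2 route, which drives Klf2 in endothelium, none of 12 KLF corepressors and coactivators and none of 5 ubiquitin ligases that act on KLF proteins passed the 2-fold rule in any genotype by edgeR or DESeq2. Unadjusted edgeR p-values below 0.05 were found for 3, 6 and 3 of them in the WT response, 3, 8 and 2 in HZ and 5, 6 and 2 in KO, to be read against the shares of all genes just given. At an adjusted p below 0.05, 7 of the 12 corepressors and coactivators were higher and 1 was lower in HZ. Of all genes, 64.4% passed that threshold in HZ in either direction. Named after their values were seen, the acetyltransferase gene Kat2a had 0.67 and the deacetylase gene Hdac2 had 0.61 on the log2 scale. The lower gene was Ep300 at -0.20. Among 7 tested genes of the glucocorticoid receptor and its targets, 2 were higher in WT cells, Dusp1, a MAP kinase phosphatase, with a log2 fold change of 4.61 ± 0.06 and Sgk1, a kinase, with 4.13 ± 0.14 (edgeR adjusted p = 1.35e-47 and 8.75e-29), and both were also higher in HZ (6.46 and 3.77) and KO cells (6.39 and 3.46). On the same list, and named after their values were seen, Tsc22d3, encoding the glucocorticoid-induced leucine zipper, had log2 fold changes of -0.89, -1.74 and -0.82 in WT, HZ and KO cells, which passed the 2-fold rule as lower in HZ, and the receptor gene Nr3c1 had -0.39, -0.57 and -0.29, all with an edgeR adjusted p below 0.05. Of the other tested genes on the list, Per1 had log2 fold changes of 0.59, 0.12 and 0.87 in WT, HZ and KO cells. In the same order, Per2 had -0.03, -0.34 and 0.43, and Fkbp5 had -0.01, 0.33 and -0.02. Whether the receptor had a part in these changes was not tested. By the 2-fold rule, 3.71% of all genes were called higher in WT, 7.02% in HZ and 3.73% in KO. The median log2 fold change of the glucocorticoid list in WT was -0.01, as over all genes. It was 0.12 in HZ and 0.43 in KO, against -0.00 and -0.01 over all genes.

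Of 9 tested TGF-beta receptors and SMADs, Smad7, the inhibitory SMAD, was higher in WT at 1.17 ± 0.07 on the log2 scale (edgeR adjusted p = 1.16e-18) and in HZ at 1.15, and was under 2-fold in KO at 0.76. Of 7 tested genes known as KLF2 or KLF4 targets elsewhere, 3 were higher and 1 lower in WT by the 2-fold rule. That rule called 3.71% of all genes higher and 3.06% lower in WT. The median log2 fold change of the 7 genes was -0.05 in WT, against -0.01 over all genes. It was 0.09 in HZ and 0.23 in KO, against -0.00 and -0.01 over all genes. The 3 with the largest change were Il7r, the interleukin-7 receptor chain, at 2.42 ± 0.30, Cdkn1b, encoding the cell cycle inhibitor p27, at -1.53 ± 0.07, and Cdkn1a, encoding p21, at 1.49 ± 0.02 (edgeR adjusted p = 2.10e-09, 1.82e-23 and 1.34e-42). All 3 passed in the same direction in HZ (2.29, -2.32 and 1.84) and KO cells (2.97, -1.40 and 1.60). Other genes on the list were named after their values were seen. Nos3, the endothelial nitric oxide synthase, was at group means of 0.280 to 1.82 CPM and S1pr1 at 0.252 to 0.812 CPM. Nos3 was higher in WT (1.38 ± 0.53) and HZ (1.89 ± 0.61) and did not pass in KO (1.09 ± 0.58). S1pr1 was lower in HZ (-1.66 ± 0.68) and did not pass in WT (-0.55 ± 0.71) or KO (-0.83 ± 0.64). Passing in some genotypes only does not show that the responses differed. Thbd had -0.84, -0.42 and 0.23 in WT, HZ and KO cells, of which only the first had an adjusted p below 0.05.

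In the GENCODE M21 annotation, genes on the opposite strand overlap Klf3, Klf7 and Klf13, and Klf3, Klf7 and Klf9 also hold another gene on their own strand. Whether counting used strand is not stated, so reads of such genes cannot be told apart from those of the KLF gene here. Klf2, Klf4, Klf6 and Klf10 had no overlapping gene.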

How the data were processed

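RNA-seq of BMMCs was available as 12 libraries. The authors deposited raw read counts per gene, and FPKM values, which the authors scaled by gene length and library total. The submitters' processing notes name fastp, HISAT2, HTSeq and the build GRCm39, with versions not given in the sources used here. Replicates were not pooled.

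The counts went into edgeR 4.0.16 (R 4.3.3). Its filterByExpr kept 12208 of 16234 genes, libraries were scaled by TMM (factors of 1.08 to 1.12 without and of 0.902 to 0.924 with stimulation), and 1 quasi-likelihood model held all 6 groups (6 residual degrees of freedom, biological coefficient of variation 4.01%, prior count 0.125). Two-sided p-values received the Benjamini-Hochberg adjustment over all genes tested. Standard errors were the log2 fold change divided by the root of the F statistic. CPM are TMM-scaled counts. Thresholds followed the study's methods, namely 2-fold, and 1.5 or 0.66 between stimulated genotypes. Interactions compared responses. Alternatives were DESeq2 1.42.0, other scalings and filters, only the groups compared, no fold threshold, a replicate block, leaving out each library, and limma 3.58.1 on log2(FPKM + 1), filtered at 0.5 mean FPKM or unfiltered, or on log2(FPKM + 0.1). Library totals of 29697958 to 35531667 counts set the counting error. Replicates of a group differed by more than counting noise (chi-square per degree of freedom 2.95 to 5.52). Promoters were from RefSeq (GRCm38.p6). The steps were tested on simulated data. The members, gene lists and tests were chosen with earlier results of these data known. All 8 members were named. From each list, genes past the WT response rule were named, at most the 3 with the largest change. For each member past it, the 2 genes with the highest r were named, except 1 that is not reported here.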

Additional observations from a re-analysis of the deposited data

Results flagged for a closer look

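By edgeR's interaction test with Benjamini-Hochberg adjustment, the KO response differed from that of WT for 6 of the 8 KLF genes, where 9.27% of all genes did. The HZ response differed from that of WT for 6 of the 8, where 38.5% of all genes did. Klf4, in neither set, passed the filter on low counts only through its stimulated libraries. Values are given as log2 fold change in KO or HZ minus that in WT with its standard error and adjusted p. For KO minus WT, the values were 1.23 ± 0.06 (1.82e-20) for Klf2, 0.54 ± 0.03 (3.12e-17) for Klf6, -0.80 ± 0.10 (2.55e-08) for Klf10, -0.37 ± 0.07 (0.000353) for Klf7, 0.25 ± 0.06 (0.00183) for Klf13 and -0.34 ± 0.09 (0.0108) for Klf3. The Klf13 difference did not pass with limma on log2(FPKM + 1) (adjusted p = 0.0838). Without stimulated KO replicate 1, the differences were 0.19 for Klf13 and -0.31 for Klf3. For HZ minus WT, they were 2.84 ± 0.07 (1.70e-34) for Klf2, 1.29 ± 0.03 (1.63e-32) for Klf6, -1.33 ± 0.09 (2.22e-16) for Klf3, 0.39 ± 0.05 (1.56e-09) for Klf9, -0.72 ± 0.10 (1.01e-07) for Klf10 and -0.41 ± 0.08 (1.79e-05) for Klf7. In every one of these libraries genotype is tied to culture, and the 2 cannot be told apart. Groups of 2 libraries allow no test for a deviating library.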

How the results depend on the processing

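The count of KLF genes past the rule in the KO response was 5 and fell to 3 under library totals and under all 3 limma fits on FPKM. Without a fold threshold it was 8 in the WT and KO responses, 7, 4 and 5 in stimulated KO against WT, HZ against WT and KO against HZ, and 6 in each unstimulated comparison, where 45.3% and 40.8%, 40.4%, 34.9% and 24.9%, and 44.6% to 51.4% of all genes passed. Directions turned only for differences that passed in no fit: in stimulated HZ against WT, Klf10 was -0.0211 with DESeq2, -0.0209 with its size factors, -0.00793 with at least 10 counts in every library, -0.0161 with only the groups compared, and -0.0820 to 0.0936 on leaving out 1 library, and Klf9 was 0.0219 under library totals, 0.0219 and 0.0218 (with or without the filter) in the limma fits, and -0.00946 to 0.00384 on leaving out 1 library. Leaving out 1 library also gave -0.0670 to 0.00206 for Klf3 in that comparison, -0.0567 to 0.0506 for Klf13 in unstimulated HZ against WT, and for Klf4 -0.694 to 0.0121 and -1.94 to 0.57 in stimulated and unstimulated HZ against WT, -0.86 to 1.64 for the HZ and -2.34 to 0.15 for the KO response difference, which were -0.00418 and 0.00104 with limma without a filter. The replicate block gave counts of 3, 6 and 5 in the WT, HZ and KO responses, as without it. What a replicate number stands for is not stated. The deviations of same-numbered libraries correlated at -0.02, 0.06 and -0.02 over 9858 genes in WT, HZ and KO, so no shared deviation was detected and the numbers were not treated as pairs.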
